A study of Mus musculus with 38 samples.

Results

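The 32 genes described here code for enzymes that build cholesterol and fatty acids and for the proteins that control their transcription. They were taken by name, with earlier results of these data known, in 3 roles: 17 sterol enzymes, 4 regulators and 11 fatty acid genes. All 32 were among the 55416 genes of a β-catenin RNA-seq table, and 15 were among the 5035 genes of a dDAVP RNA-seq table. The other 17 were absent from the dDAVP table, which held a gene only where its lowest library was above 10 TPM (a level scaled to transcript length and to the library total). A member that dropped under that level in a single library could therefore not be seen there.

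All samples were cortical collecting ducts (CCDs), the kidney tubule segment where vasopressin sets water reabsorption, dissected by hand from mouse kidney. In the first experiment C57BL/6 mice had received dDAVP, a vasopressin analogue that acts on the V2 receptor, or saline as vehicle for 5 days. It gave 4 dDAVP and 4 vehicle RNA-seq libraries, and 3 dDAVP and 3 vehicle ATAC-seq libraries, each ATAC-seq reaction using 3 ducts. In the second, 4 MT units carried a mutation of serine 552 of β-catenin, a site phosphorylated by protein kinase A, and 4 WT units did not. Each unit had 3 RNA-seq libraries. The labels of these 24 libraries conflict: each gives a dDAVP treatment and a C57BL/6 genotype, only the titles separate MT from WT, and the name of the deposited table says that no vasopressin was given. The title of dDAVP RNA-seq library 4 numbers the duct 4 and the dDAVP sample 3. The labels do not say whether a unit or a library is 1 animal, so the p-values measure only the spread between these samples. Depth was unknown for every library, because TPM keeps no record of it and the ATAC-seq table gives group values.

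Cholesterol synthesis starts from acetyl-CoA, runs through mevalonate and squalene, and ends in a series of changes to the sterol ring. The membrane proteins SREBP-1 and SREBP-2, coded by Srebf1 and Srebf2, are held in the endoplasmic reticulum by Scap and Insig1 while sterol is plentiful. When sterol is short they are carried to the Golgi, cut, and released to raise transcription of sterol and fatty acid enzymes. Fatty acids are made from citrate by Acly, Acaca and Fasn, lengthened by the Elovl elongases, and given double bonds by the Scd and Fads desaturases.

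The markers of the duct's own cell types were present. All 8 principal cell markers and all 8 intercalated cell markers were measured in both tables. The principal cell markers, which include the vasopressin-regulated water channel Aqp2, summed to between 68880 and 92290 TPM in dDAVP libraries and between 31040 and 34500 TPM in vehicle libraries. The intercalated cell markers summed to between 3605 and 4762 TPM in dDAVP libraries and between 5610 and 7057 TPM in vehicle libraries. Only 2 of 7 proximal tubule markers were listed in the dDAVP table, and they summed to 5767 TPM in vehicle library 3 against 175.6 to 1219 TPM in the other 7 libraries. The 2 of 5 endothelium markers listed summed to 161.1 to 423.8 TPM in dDAVP libraries and 110.8 to 201.7 TPM in vehicle libraries. Umod, of the thick ascending limb, had 5253 TPM in dDAVP library 1 and at most 824.9 TPM in the other 7. Set against the rest over all listed genes, vehicle libraries 3 and 4 had a median Pearson r of 0.863 and 0.839, where each of the other 6 libraries had 0.913 or more. In bulk ducts, fewer cells of a type and less RNA per cell cannot be told apart, and the part of duct composition in the results below was not tested.

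Among the 15 members measured with dDAVP, 1 rose and none fell. The one that rose was Fads1, the delta-5 desaturase that makes arachidonic and eicosapentaenoic acid. Fads1 lies on mouse chromosome 19 (GRCm38, chr19:10182877-10196874). Its level was 100.65, 88.76, 106.57 and 104.46 TPM in the 4 dDAVP libraries, against 26.6, 25.22, 48.58 and 40.97 TPM in the 4 vehicle libraries. Every dDAVP library stood well above every vehicle library, and the dDAVP libraries differed little among themselves. The means were 100.1 ± 7.95 TPM with dDAVP and 35.3 ± 11.3 TPM with vehicle (SD, n = 4 each). The log2 fold change was 1.53 with a standard error of 0.27 (95% interval 0.94 to 2.12), a 2.88-fold rise (limma on log2 of TPM + 1, adjusted p = 0.0241 over all 5035 genes). Of all 5035 genes, 35 were called (0.695%). Fads1 ranked 21 of 5035 by size of rise and 27 by p. The authors' deposited table gives a log2 fold change of 1.55 and an adjusted p of 0.00865 (DESeq) for Fads1. It calls 52 of the 5035 genes, and also no other member.

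The direction and size of the Fads1 difference did not rest on any 1 library, but its call did. The log2 fold change lay between 1.39 and 1.69 when each library was left out in turn, while the adjusted p passed the threshold in 2 of these 8 fits and reached 0.115 in the others. The call was lost without any of the 4 dDAVP libraries (adjusted p = 0.115, 0.0671, 0.105 and 0.0907 without libraries 1 to 4) and without vehicle library 1 or 2 (adjusted p = 0.104 and 0.088). It was kept without vehicle library 3 or 4. With all 8 libraries and the replicate number as a block, the call was also lost (limma adjusted p = 0.10). With vehicle libraries 3 and 4 both left out, a choice made after seeing the data, the log2 fold change was 1.91 (adjusted p = 0.00257).

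**Figure D1:**
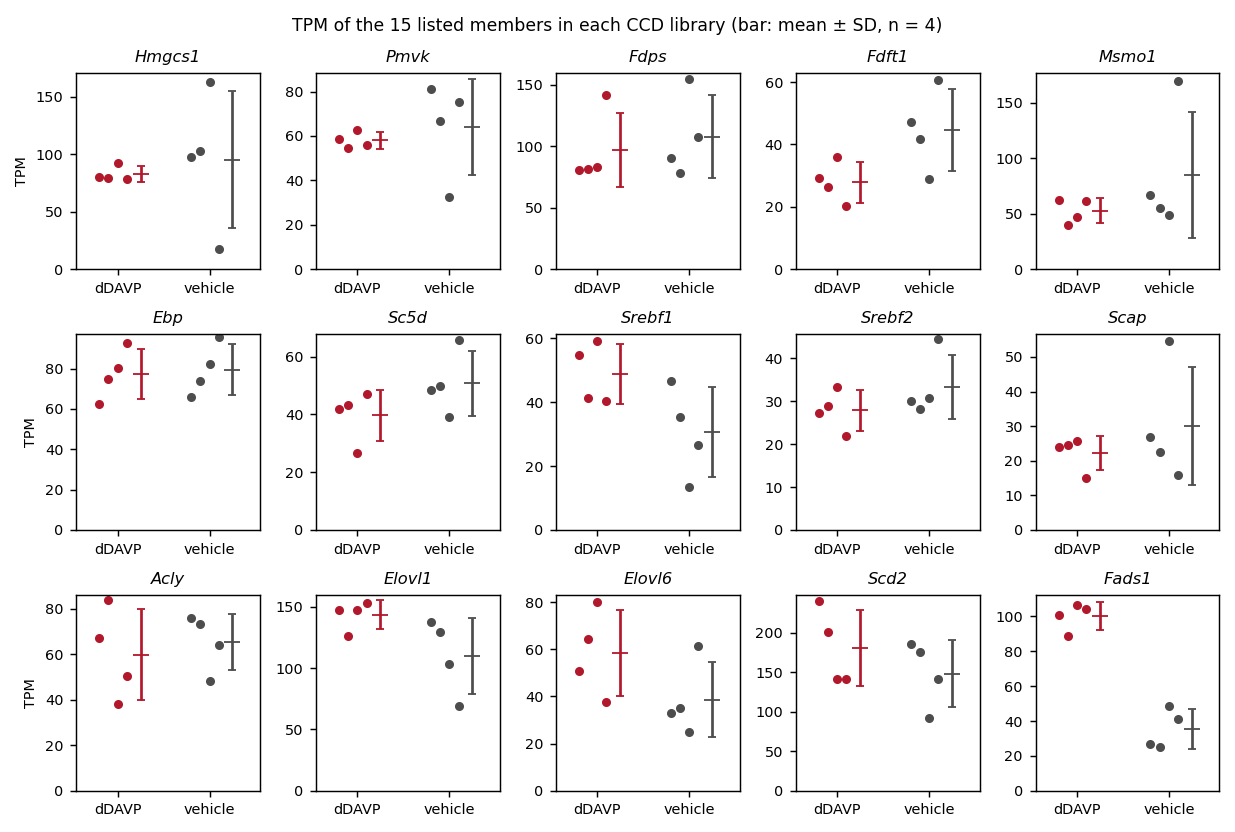
TPM (y axis, from 0) of the 15 members listed in the dDAVP table, 1 panel per gene, with each of the 4 dDAVP libraries (red) left of each of the 4 vehicle libraries (grey) and the mean ± SD beside each group. Fads1 is the panel in which the 2 groups stand apart, at 88.76 to 106.57 TPM with dDAVP and 25.22 to 48.58 TPM with vehicle; in Hmgcs1 and Msmo1 the vehicle libraries spread more widely than the dDAVP libraries.

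The other fatty acid genes of the dDAVP table were the elongases Elovl1 and Elovl6, the stearoyl-CoA desaturase Scd2 and the citrate lyase Acly, and none passed. Elovl1, which lengthens very long saturated and monounsaturated chains, had 147.77, 126.38, 147.67 and 152.88 TPM in dDAVP libraries, against 138.1, 129.65, 103.78 and 68.85 TPM in vehicle libraries. Its groups overlapped at the lowest dDAVP library, and vehicle library 4 was the low one. Its log2 fold change was 0.43 ± 0.24 (standard error, limma adjusted p = 0.537). Elovl6, which lengthens palmitate, had 50.79, 64.58, 80.2 and 37.59 TPM in dDAVP libraries, against 33.15, 35.17, 25.05 and 61.46 TPM in vehicle libraries. Library 4 of each group went the other way from the rest of its group. The log2 fold change of Elovl6 was 0.60 ± 0.34 (limma adjusted p = 0.543).

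Scd2, which puts a double bond into stearate and palmitate, had 240.05, 200.14, 140.83 and 141.29 TPM in dDAVP libraries, against 185.03, 175.29, 91.44 and 140.9 TPM in vehicle libraries. The groups overlapped, with dDAVP libraries 1 and 2 among the high ones and vehicle library 3 the lowest, and the log2 fold change was 0.30 ± 0.27 (limma adjusted p = 0.729), with a value of -0.03 when vehicle libraries 3 and 4 were left out. Acly, which splits citrate to supply acetyl-CoA, had 67.03, 83.78, 37.99 and 50.46 TPM in dDAVP libraries, against 75.77, 73.52, 48.37 and 64.13 TPM in vehicle libraries. Its libraries overlapped throughout, with a log2 fold change of -0.17 ± 0.29 (limma adjusted p = 0.87). Over the 5 fatty acid genes listed, 4 had a fold change above 0 and the median was 0.43 on the log2 scale, beside a median of -0.06 and 43.6% above 0 over all genes tested. The median of the same 5 genes was 0.10 without vehicle libraries 3 and 4.

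No sterol enzyme passed with dDAVP. Of 7 listed, 6 had a fold change below 0 and 1 above, with a median of -0.15 on the log2 scale that was -0.35 without dDAVP library 4 or without vehicle library 3. Fdft1, squalene synthase, is the step that commits the pathway to sterol. It had 29.2, 26.28, 35.96 and 20.12 TPM in dDAVP libraries, against 47.16, 41.58, 28.92 and 60.78 TPM in vehicle libraries. Only vehicle library 3 lay within the dDAVP range. The log2 fold change of Fdft1 was -0.64 ± 0.30 (95% interval -1.30 to 0.02, limma adjusted p = 0.466). Msmo1, which takes methyl groups off the sterol ring, had 62.05, 39.6, 47.18 and 61.75 TPM in dDAVP libraries, against 67, 54.78, 49.22 and 169.68 TPM in vehicle libraries. Vehicle library 4 stood far above every other library, and the log2 fold change was -0.52 ± 0.38 (limma adjusted p = 0.658), or -0.13 without that library.

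The remaining 5 sterol enzymes had log2 fold changes between -0.35 and 0.16. They were Sc5d, a late ring desaturase, at -0.35; Fdps, which makes farnesyl pyrophosphate, at -0.15; the phosphomevalonate kinase Pmvk at -0.06; the isomerase Ebp at -0.04; and Hmgcs1, which makes HMG-CoA, at 0.16. Hmgcs1 had the widest ratio of highest to lowest library of the 15 members in vehicle ducts: it lay between 77.86 and 92.56 TPM in dDAVP libraries and between 17.52 and 162.96 TPM in vehicle libraries. Its 95% interval ran from -1.03 to 1.34, so a change of either sign of more than 2-fold was within the error. Its mean was lower with dDAVP, 82.3 TPM against 95.2 TPM with vehicle, the opposite of its log2 value; vehicle library 4 was the one at 17.52 TPM. Over the 15 members the median coefficient of variation was 21.1% in dDAVP libraries and 31.3% in vehicle libraries, close to the 20% and 29.3% of all genes tested.

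Of the regulators, 3 of 4 were listed and none passed. Srebf1 had 54.9, 41.39, 59.05 and 40.52 TPM in dDAVP libraries, against 46.76, 35.45, 13.41 and 26.59 TPM in vehicle libraries. Vehicle library 1 lay within the dDAVP range and the other 3 vehicle libraries below it. The log2 fold change of Srebf1 was 0.77 ± 0.36 (95% interval -0.03 to 1.57, limma adjusted p = 0.467), and without vehicle libraries 3 and 4 it was 0.24. Srebf2 had 27.28, 28.91, 33.43 and 21.98 TPM in dDAVP libraries, against 30.1, 28.31, 30.73 and 44.55 TPM in vehicle libraries, a log2 fold change of -0.24 ± 0.26 (limma adjusted p = 0.77). The groups of Srebf2 overlapped, with vehicle library 4 above the rest. Scap, the escort of both SREBPs, had a log2 fold change of -0.30 ± 0.36, with vehicle library 3 at 54.52 TPM and the other 7 libraries between 14.99 and 26.91 TPM. Groups did not overlap, with dDAVP higher, in 1 of the 15 members (Fads1), beside 3.56% of all genes; with dDAVP lower they did so in 0 members, beside 5.02% of all genes.

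Neighbouring steps of lipid metabolism gave no call either. Of 26 other synthesis genes 14 were listed and 0 passed, with a median log2 fold change of -0.31. Those of smallest p were the dehydratase Hacd1 (0.61), the reductase Tecr (0.60), both of the elongation cycle, and the acyl-CoA ligase Acsl1 (-0.67). Of 22 genes of sterol sensing, uptake and export 8 were listed and 0 passed, led by the sterol carrier Stard4 (0.62), the oxysterol receptor Nr1h2 (0.35) and the oxysterol-binding Osbp (-0.41). Of 20 fatty acid oxidation genes 18 were listed and 0 passed. There the smallest p-values belonged to Acadvl, a mitochondrial acyl-CoA dehydrogenase, at 338 ± 46.8 TPM with dDAVP and 472 ± 55.5 TPM with vehicle (SD, n = 4 each; limma adjusted p = 0.263), Cpt1a, the entry step of mitochondrial oxidation, at 171 ± 10.7 TPM with dDAVP and 119 ± 15.3 TPM with vehicle (limma adjusted p = 0.273), and Etfdh, which passes the electrons on (-0.75, limma adjusted p = 0.288).

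The β-catenin table gives an RNA level in CCDs for all 32 members. In WT units Scd2 had the highest level of the 32, 323 ± 44.7 TPM (SD, n = 4), above 96.8% of the genes tested. Elovl1 followed at 124 ± 3.84 TPM, then Hmgcs1 (90.1 ± 2.74 TPM) and Acly (88.2 ± 3.86 TPM), which overlapped each other and no other member. Below these came Fdps, Pmvk, Ebp, Elovl5 and Sc5d (74.9 to 56.6 TPM), then Scap, Elovl6, Fdft1, Srebf2, Srebf1, Msmo1 and Fads1 (50 to 38 TPM). Within each of these runs every gene overlapped its neighbour in the order. At the steps between runs the 2 adjacent genes did not overlap, although Elovl5, at 48.53 to 70.9 TPM, also reached into the range of Scap, Elovl6, Fdft1, Srebf2 and Srebf1. From Hsd17b7 (24.6 TPM) through Nsdhl, Cyp51, Mvk, Tm7sf2, Sqle, Lss, Fasn, Insig1, Dhcr7, Mvd, Fads3, Fads2 and Idi1 to Acaca (2.69 TPM) no 2 neighbours differed beyond their spread. The last member was Scd1, between 0.13 and 0.44 TPM.

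In the Scd and Fads families 1 copy made up most of the summed level, in MT and WT units alike, while the Elovl and Srebf families were more evenly shared. Scd2 made up 99.9% of the summed TPM of Scd1 and Scd2 in MT units and 99.9% in WT units; these are close paralogues, and the split of their shared reads is uncertain (RSEM is named in the submitters' processing notes). Fads1 made up 79.6 ± 2.84% of the 3 Fads genes in MT units and 78 ± 7.94% in WT units. Elovl1, Elovl5 and Elovl6 shared their sum more evenly, at 51.8, 26 and 22.2% in MT units and 53.9, 24.9 and 21.1% in WT units. Srebf2 took between 53.4 and 55.3% of the summed Srebf1 and Srebf2 level in MT units and between 50.2 and 51.2% in WT units. Those 2 ranges do not overlap although each gene alone did. Of the 4 families this ratio was singled out after its values were seen, and it was not tested.

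**Figure D2:**
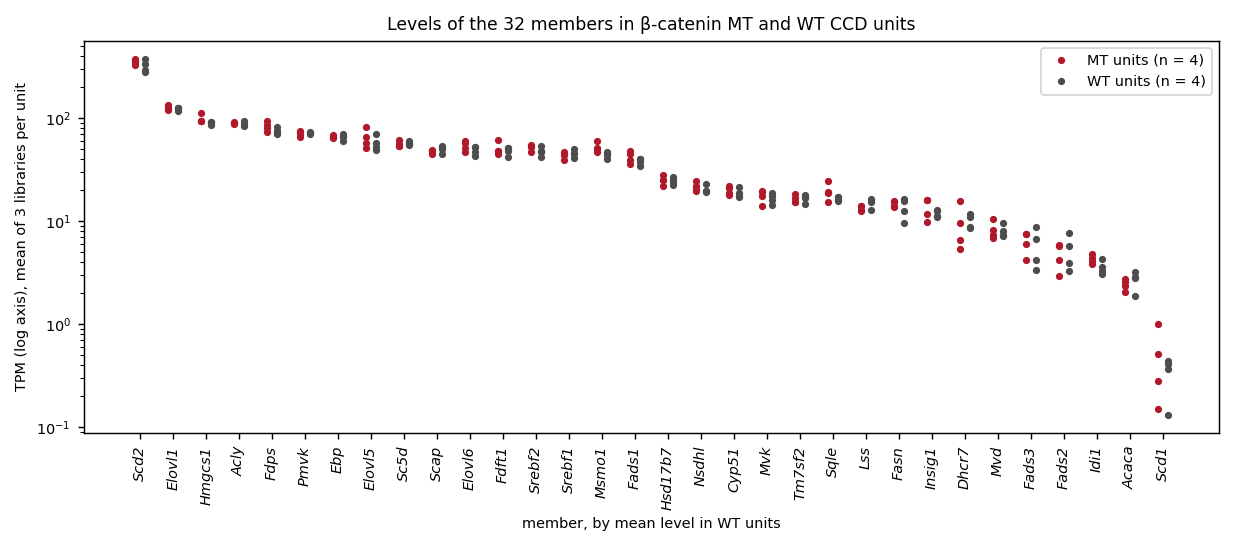
TPM (log axis) of the 32 members in the 4 MT units (red, left) and the 4 WT units (grey, right), each point the mean of 3 libraries, ordered by mean level in WT units. Levels run from Scd2, at 281.24 to 378.75 TPM in WT units, down to Scd1, at 0.13 to 0.44 TPM, and the MT and WT ranges overlap in every gene but Msmo1 and Hmgcs1.

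No member passed between MT and WT units. Of the 31 members tested 0 were called, beside 0 of 15013 genes (0.0%) in the limma fit, where 683 genes had an unadjusted p under 0.05 and a fit over the 24 libraries called 1. Scd1 fell under the minimum mean of 1 TPM and was not tested. Msmo1 had the smallest p of the members. It had 50.28, 51.58, 47.42 and 60.37 TPM in MT units, against 45.28, 46.54, 44.25 and 39.94 TPM in WT units. All 4 MT units lay above all 4 WT units. The log2 fold change was 0.24 ± 0.08 (95% interval 0.06 to 0.43, limma unadjusted p = 0.0169, adjusted p = 0.969). Hmgcs1 was the other member without overlap, at 93.19 to 112.39 TPM in MT units and 86.31 to 92.6 TPM in WT units (log2 fold change 0.12). Groups without overlap and with MT higher made up 2 of 31 members, beside 1.85% of all genes, and with MT lower 0 members, beside 1.17%.

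None of the other sterol enzymes passed. Lss, the cyclase that makes lanosterol, had 14.17, 12.69, 12.54 and 14.08 TPM in MT units, against 12.94, 16.26, 15.99 and 15.47 TPM in WT units. WT unit 1 lay among the MT units, and the log2 fold change was -0.17 ± 0.09 (limma adjusted p = 0.969). Over the 17 sterol enzymes 12 had a fold change above 0, with a median of 0.06 and a range of -0.18 to 0.24; over all genes tested 53.2% were above 0 and the median was 0.01. MT unit 4 was the highest of the 8 units in 9 of the 17 sterol enzymes, and in 12.4% of all genes. Without MT unit 1, MT unit 4 or WT unit 4 the median of the sterol enzymes was 0.02. Dhcr7, the last reductase of the pathway, was the one sterol enzyme lowest in that unit: it had 15.66, 6.6, 9.65 and 5.4 TPM in MT units, with unit 4 the lowest, against 8.49 to 11.66 TPM in WT units.

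Among the regulators Srebf2 had 54.55, 53.82, 47.17 and 51.93 TPM in MT units, against 47.67, 53.09, 41.52 and 47.12 TPM in WT units. The groups overlapped, and the log2 fold change was 0.13 ± 0.08 (limma adjusted p = 0.969). Scap had 48.02, 49.1, 47.68 and 45.24 TPM in MT units, against 50.01, 52.34, 44.4 and 53.17 TPM in WT units, a log2 fold change of -0.07 ± 0.07. Here WT unit 3 was the lowest of all 8. Insig1, the sterol-dependent anchor, ranged from 9.9 to 16.12 TPM in MT units and from 11.02 to 12.83 TPM in WT units.

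The fatty acid genes had a median log2 fold change of 0.13, with 8 of 10 above 0. Scd2 had 376.71, 326.06, 351.68 and 355.32 TPM in MT units, against 281.24, 378.75, 338.26 and 292.71 TPM in WT units. Fads1 had 44.56, 39.33, 36.06 and 47.78 TPM in MT units, against 40.39, 39.89, 34.06 and 37.69 TPM in WT units. In both genes the groups overlapped, with a log2 fold change of 0.14 ± 0.10 for Scd2 and 0.13 ± 0.10 for Fads1 (limma adjusted p = 0.969 for each). The 95% interval of Fads1 was -0.09 to 0.35 here and 0.94 to 2.12 between dDAVP and vehicle. The first contrast is of genotype and the second of treatment, so the 2 do not measure the same thing. They come from tables normalised separately, and the difference between them was not tested.

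Elovl6 had 59.96, 56.84, 51.63 and 47.19 TPM in MT units, against 46.66, 52.41, 42.58 and 52.14 TPM in WT units. Elovl5, which lengthens polyunsaturated chains, had 50.73, 57.39, 65.5 and 81.27 TPM in MT units, against 57.15, 48.53, 70.9 and 52.87 TPM in WT units. The 2 elongases ran opposite to each other in the MT units, and both groups overlapped in each gene. Fasn, the synthase of palmitate, had 14.09, 15.79, 13.68 and 15.37 TPM in MT units, against 12.65, 16.53, 9.66 and 15.71 TPM in WT units, with WT unit 3 the lowest. Acly had 90.66, 89.82, 88.25 and 91.2 TPM in MT units, against 93.4, 86.69, 84.28 and 88.44 TPM in WT units, the narrowest spread of any member in MT units. None of the 26 other synthesis genes, 22 sterol sensing genes or 20 oxidation genes passed, with 20, 21 and 20 of them tested. In the sterol sensing list the smallest p belonged to the sterol exporter Abca1 (log2 fold change -0.31, limma adjusted p = 0.969).

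**Figure D3:**
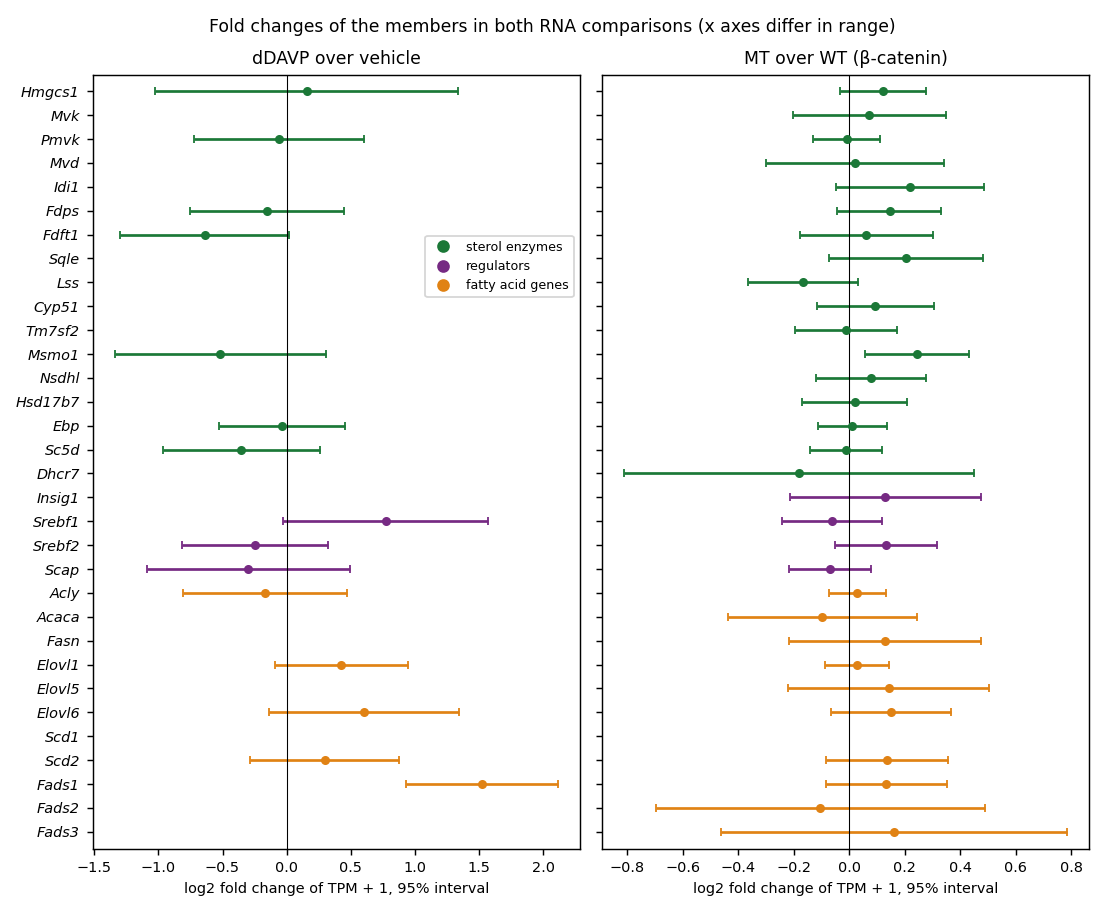
Log2 fold change of TPM + 1 with its 95% interval (x axis) for each member, dDAVP over vehicle on the left (15 members) and MT over WT on the right (31 members), coloured by role; the x axes differ in range. Fads1 at 1.53 is the one member whose dDAVP interval lies wholly above 0, and Msmo1 at 0.24 the one whose MT interval does.

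Few members varied together between libraries. Over the 24 libraries of the β-catenin table, with each genotype's mean removed, the 91 pairs of the 14 sterol enzymes at 10 TPM or more had a median Pearson r of 0.19, beside 0.03 over all pairs of 8842 genes at that level. An r above 0.5 was found in 7 of the 91 sterol pairs and in 1 of 21 pairs of fatty acid genes, beside 5.14% of all gene pairs. The pairs named next were picked as the highest. Sqle, the epoxidase of squalene, and Msmo1 had the highest r of the sterol enzymes, 0.81. Both also went with Hmgcs1 (0.65 and 0.63) and with Insig1 (0.67 and 0.59). Scap, Fasn and Elovl6 also went together: r was 0.85 for Scap with Fasn, 0.68 for Fasn with Elovl6 and 0.63 for Scap with Elovl6. Srebf1 and Srebf2 went together at 0.58.

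Elovl5 and Elovl6 went against each other, with r = -0.80, the lowest of all member pairs on this measure. With the mean of each unit removed, so that only the libraries within a unit were set against each other, Sqle with Msmo1 was 0.75, Hmgcs1 with Msmo1 was 0.59, Scap with Fasn was 0.87 and Fasn with Elovl6 was 0.73. Elovl5 with Elovl6 was then -0.51, no longer the lowest, and Srebf1 with Srebf2 was 0.21. The sterol enzymes as a whole then had a median r of 0.04, beside 0.03 over all pairs. These are descriptions: the libraries of a unit share a unit, and TPM values of a library share its total.

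**Figure D4:**
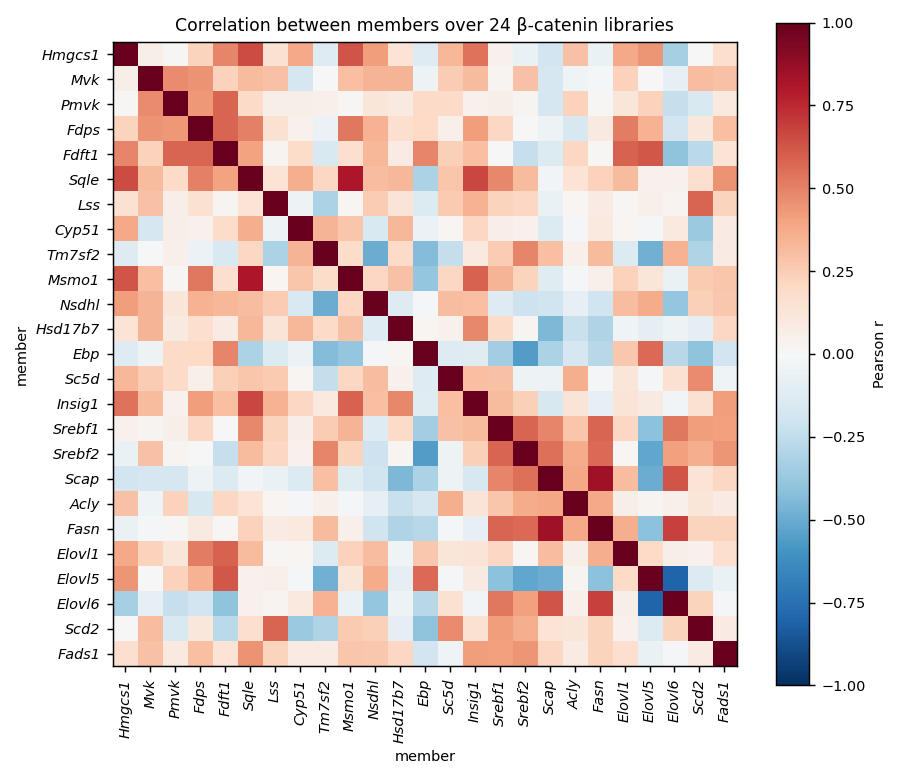
Pearson r between members (both axes, ordered by role) over the 24 β-catenin libraries, on log2 of TPM + 1 after removing each genotype's mean, for the 25 members at 10 TPM or more. Dark red blocks mark Hmgcs1, Sqle, Msmo1 and Insig1 (0.59 to 0.81 for the pairs with Sqle or Msmo1) and Scap with Fasn (0.85), and the darkest blue marks Elovl5 with Elovl6 (-0.80).

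The low desaturases Fads2 and Fads3 were highest in the libraries with most proximal tubule RNA. The proximal tubule markers summed to 1270 and 1111 TPM in WT unit 3 libraries 1 and 2 and to 812 TPM in MT unit 4 library 3, against 3.21 to 220.5 TPM in the other 21 libraries. Fads2, the delta-6 desaturase, had 9.99, 8.76 and 9.62 TPM in those 3 libraries and between 2.02 and 7.92 TPM in the other 21. Fads3 had 14.96, 8.8 and 12.72 TPM there and between 1.95 and 8.55 TPM elsewhere. No other member was above its range in all 3. Of the members named above for their correlations, Elovl5 was above the median of the other 21 in all 3. It had 67.1, 69.01 and 81.09 TPM, against 55.4 TPM. Scap, Fasn, Elovl6 and Srebf1 were below theirs in all 3, with Fasn at 8.73, 9.46 and 12.17 TPM against 14.95 TPM. The rest of those named lay on both sides. The part of proximal tubule RNA in these values and correlations was not tested. Scd1, the stearoyl-CoA desaturase of fat and liver, had its highest value, 2.7 TPM, in MT unit 4 library 1, against 0.07 to 0.92 TPM in the other 23. In that library the 7 adipocyte markers summed to 34.8 TPM, against 0.21 to 2.67 TPM in the others. Cfd alone had 27.26 TPM there. Of the other 6 markers 5 were above the range of the other libraries, at 0.25 to 2.21 TPM, while Lep, at 0.16 TPM, was below their median of 0.44 TPM; the part of fat cell RNA in the Scd1 value was not tested.

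At the promoters, all values are the authors': the log2 mean signal of each group and a log2 fold change of dDAVP over vehicle, which runs above the difference of the group values by a median of 0.11. The authors' table holds 33 promoter peaks that it assigns to 23 members. The assigned gene need not be the one whose start the peak covers. All 33 had a fold change below 0, with a median of -0.54, and 12 (36.4%) passed an adjusted p of 0.05. Among all 18508 promoter peaks, 25.8% passed as lower and 0.167% as higher, 16.4% had a fold change above 0, and the median was -0.48. The smallest adjusted p belonged to a peak within Pmvk (chr3:89458026-89458899), with a log2 signal of 5.82 with dDAVP and 7.13 with vehicle. A stronger promoter peak of Pmvk (chr3:89458975-89459842), 7.24 with dDAVP and 7.84 with vehicle, did not pass (authors' adjusted p = 0.0908). The next smallest adjusted p belonged to the Insig1 promoter (chr5:28070480-28072285), 9.24 with dDAVP and 9.87 with vehicle. No test over replicates could be made on group values.

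RefSeq promoter windows, from 250 bases before to 50 after a transcription start on GRCm38, were found for 26 of the 32 members. Fads1, Fdft1, Fdps, Scd1, Scd2 and Sqle had no entry. A peak lay over the window of 25 members, and in 18 of them it passed as lower, beside 49.5% of 14026 genes (0.299% passed as higher). For Elovl6, Mvd, Mvk and Nsdhl the authors assign that peak to another gene, and those of Mvd and Mvk are among the 18. Among windows whose peak had a mean log2 signal of 7 or more, 18 of 24 members passed as lower, beside 67.6% of 9057 genes. Of the 25 members 7 did not pass, and Fads2 alone of the 25 had a fold change above 0. Its promoter peak (chr19:10100340-10102301) had a log2 signal of 8.47 with dDAVP and 8.43 with vehicle, a fold change of 0.16 (authors' adjusted p = 0.64). It was not called, but 3 of the 9057 strong windows had a higher fold change, and 19 were above 0 at all. Scap stood at the other end, with 7.37 with dDAVP and 8.29 with vehicle (fold change -0.80, authors' adjusted p = 0.00116).

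**Figure D5:**
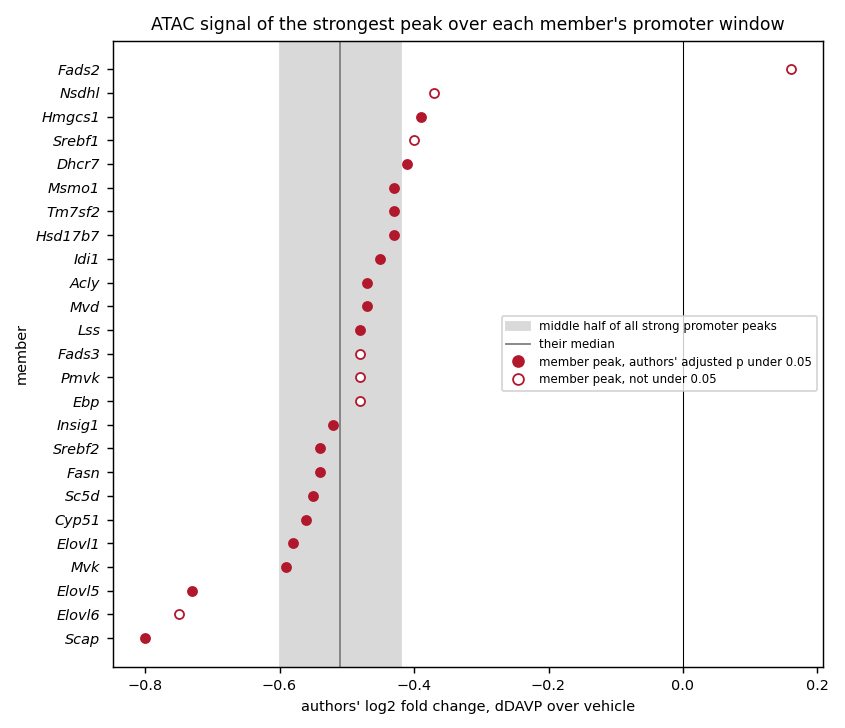
Authors' log2 fold change of ATAC-seq signal, dDAVP over vehicle (x axis), of the strongest peak over the promoter window of 25 members (y axis, ordered by value); filled points have an authors' adjusted p under 0.05, the grey band is the middle 50% of all promoter peaks of mean log2 signal 7 or more and the line their median of -0.51. Fads2, at 0.16, is the one point right of 0; the others lie between -0.80 and -0.37.

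Around Fads1 itself no peak was called. The peak over its first exon (chr19:10182492-10183829), which covers the annotated start of the gene, had a log2 signal of 8.09 with dDAVP and 8.58 with vehicle (fold change -0.37, authors' adjusted p = 0.158). Of the 13 peaks nearest to Fads1, 11 had a fold change above 0, as had 8 of the 9 nearest to Fads2 and 7 of the 15 nearest to Fads3, beside 41.2% of all 270806 peaks. Most of these peaks were weak: 3 of the 13 near Fads1 reached a mean log2 signal of 5. Of all 328 peaks nearest to a member 31 passed as lower, beside 5.98% of all peaks, and 1 as higher, beside 0.846%. The higher one was a weak intergenic peak beside Mvk (chr5:114465657-114465818; 3.34 with dDAVP, 1.39 with vehicle).

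The promoter windows were searched on both strands for TCACNCCAC, a form of the sterol regulatory element to which SREBPs bind, and for CCAAT (bound by NF-Y), GGGCGG (bound by Sp1), CACGTG (the E-box), TGACGTCA (the cAMP response element) and its core TGACG, which every TGACGTCA contains. TCACNCCAC was found in 1 of 26 members, Hmgcs1, beside 1.44% of all 27025 genes and 1.29% of the 9057 genes with a strong promoter peak. CCAAT was found in 22 of 26 members and in all 14 matched sterol enzymes, beside 41.1% of all genes and 43.2% of those with a strong peak. GGGCGG was found in 21 of 26 members, beside 38.2% of all genes and 74% of those with a strong peak. CACGTG was found in 6 members, beside 8.09% of all genes and 12.3% of those with a strong peak. TGACGTCA was found in 1 member, Elovl5 (2.03% and 3.81%). TGACG was found in 9 members, 34.6%, beside 23% of all genes and 37.1% of those with a strong peak. A match is a run of letters and not a measured binding site. The promoters of 3 members are shown, chosen after the values were seen. Hmgcs1 (chr13:119690101-119690400, plus strand) holds the one TCACNCCAC match, and Msmo1 (chr8:64733529-64733828, minus strand) is the enzyme of smallest p between MT and WT units. Fads2 (chr19:10101454-10101753, minus strand) is the one member whose promoter window peak had an ATAC-seq fold change above 0. Each is given from 5′ to 3′ on the strand of the gene. In Hmgcs1 capitals mark the TCACNCCAC match and the 4 CCAAT matches, which all lie on the opposite strand and so read ATTGG. In Msmo1 capitals mark the CCAAT matches, and in Fads2 the GGGCGG match.
Hmgcs1: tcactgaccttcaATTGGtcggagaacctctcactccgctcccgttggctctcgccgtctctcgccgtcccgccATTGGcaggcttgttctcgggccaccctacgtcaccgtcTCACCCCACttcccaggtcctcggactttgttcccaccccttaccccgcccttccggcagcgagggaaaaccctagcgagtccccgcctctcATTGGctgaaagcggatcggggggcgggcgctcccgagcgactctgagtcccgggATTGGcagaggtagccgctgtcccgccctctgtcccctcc
Msmo1: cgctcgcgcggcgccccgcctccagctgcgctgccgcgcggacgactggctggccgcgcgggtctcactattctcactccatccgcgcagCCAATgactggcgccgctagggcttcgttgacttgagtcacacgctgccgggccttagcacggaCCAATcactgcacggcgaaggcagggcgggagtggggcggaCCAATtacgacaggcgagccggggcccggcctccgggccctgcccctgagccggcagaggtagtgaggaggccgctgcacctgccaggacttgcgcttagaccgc
Fads2: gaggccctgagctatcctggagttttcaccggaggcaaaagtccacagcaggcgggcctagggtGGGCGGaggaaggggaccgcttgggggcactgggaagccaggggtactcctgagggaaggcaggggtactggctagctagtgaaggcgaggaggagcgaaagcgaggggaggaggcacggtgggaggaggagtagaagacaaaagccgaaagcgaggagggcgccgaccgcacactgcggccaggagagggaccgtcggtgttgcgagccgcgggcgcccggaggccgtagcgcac

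The Hmgcs1 match lies at positions 114 to 122 of the 300 bases. Msmo1 has 3 CCAAT matches on its own strand and Fads2 has none on either, as is the case for 4 of the 26 members. In the ATAC-seq data the peak over Hmgcs1 had a log2 signal of 9.5 with dDAVP and 10.01 with vehicle (fold change -0.39, authors' adjusted p = 0.00313), and that over Msmo1 8.82 with dDAVP and 9.36 with vehicle (fold change -0.43, authors' adjusted p = 0.0238). The middle 50% of strong promoter peaks ran from -0.60 to -0.42, so Msmo1 lay inside it and Hmgcs1 just above.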

How the data were processed

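RNA-seq and ATAC-seq libraries came from microdissected mouse CCDs. TPM values were made by the authors; STAR, RSEM and mm10 (GRCm38) are named in the submitters' processing notes without settings, and SMARTer V4 with Nextera XT kits in the labels' protocols. Per the file headers, the authors kept in the dDAVP table only genes above 10 TPM in every library. Log2 fold changes and group signals (log2) and p-values (adjusted, from DESeq in the RNA table per the file headers) were deposited by the authors for the dDAVP RNA-seq and the ATAC-seq tables; the submitters' notes name cutadapt 3.4, Bowtie2, MACS2 and DiffBind. The ATAC-seq table has 1 value per group, so nothing was tested on it here. The 8 deposited log2 copies of TPM columns were not used.

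Differences were tested with limma 3.58.1 (R 4.3.3; empirical Bayes with a trend, two-sided) on log2 of TPM + 1, with Benjamini-Hochberg adjustment over all genes of a mean of 1 TPM or more and a threshold of 0.05. A fold change on this scale understates that of low genes. For MT against WT, the 3 libraries of each unit were averaged as TPM and each unit counted as 1 replicate. The RNA-seq tables were normalised separately and never tested together. The code was tested on simulated data. Values of every library or unit are given for members that passed and for those of smallest p in each role; other members have ranges or fold changes. The members and gene lists were chosen with earlier results of these data known. Alternatives were other pseudocounts, filters, scalings and limma settings, a replicate block, and leaving out libraries. Promoter sequences are RefSeq's on GRCm38. Depth is not recorded in TPM, so no counting error could be given. A gene of a wider list is not reported here.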

Additional observations from a re-analysis of the deposited data

Results flagged for a closer look

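Of 92 groups of 4 values (15 members in 2 groups and 31 in 2), 8 held 1 sample far from the other 3, where chance gives about 1 group in 20. No explanation was tested for any of the 8.

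Library 4 of each dDAVP-table group accounted for 4 of the 8. In dDAVP library 4 Fdps had 141.76 TPM, against 80.52 to 82.75 TPM in the other dDAVP libraries, and Scap had 14.99 TPM, against 23.89 to 25.61 TPM. In vehicle library 4 Msmo1 had 169.68 TPM, against 49.22 to 67 TPM in the other vehicle libraries, and Srebf2 had 44.55 TPM, against 28.31 to 30.73 TPM. In the same vehicle library Hmgcs1 was the lowest of all 8, at 17.52 TPM, and 32.2% of all genes tested had their highest value there. In dDAVP library 3 the level of Hmgcs1 was 92.56 TPM, where its other 3 dDAVP libraries had 77.86 to 79.59 TPM.

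In the β-catenin table Hmgcs1 had 112.39 TPM in MT unit 4, against 93.19 to 94.25 TPM in the other MT units. Nsdhl, a sterol dehydrogenase, had 22.82 TPM in WT unit 3, against 19.19 to 19.77 TPM in the other WT units. Elovl1 had 118.03 TPM in WT unit 1, against 124.99 to 126.14 TPM in the other WT units.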

How the results depend on the processing

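The dDAVP calls depended on the setting, and the directions mostly did not. The count of genes called, 35, was 317 with array weights and 18 without a variance trend. With 1 library left out it was 7 to 47, falling below 24 without any of the 4 dDAVP libraries or vehicle library 1 or 2 (16, 23, 7, 19, 18 and 17). The count of members called, 1, was 3 with array weights (Fdft1 and Elovl6 were added, limma adjusted p = 0.0327 and 0.0332) and 0 to 1 with a library left out. Fads1 had a log2 fold change of 1.31 to 1.91 over 17 alternatives and passed in 10 (limma adjusted p 2.85e-05 to 0.115). The median of the sterol enzymes was -0.35 to -0.08 with a library left out, and that of the fatty acid genes 0.10 without vehicle libraries 3 and 4. Scd2 changed sign without those libraries (-0.03), Acly without dDAVP library 3 (0.03; -0.35 to 0.03 over libraries left out) and Fasn, between MT and WT, without WT unit 3 (-0.01; -0.01 to 0.22). Between MT and WT units 1 gene was called over the 24 libraries and 0 to 5 with a unit left out (5 without MT unit 4), and no member was called under any alternative run. Of the 33 promoter peaks 4 passed an authors' adjusted p of 0.01, against 12 at 0.05, and 32 of all 328 peaks nearest to members passed at 0.05. The cause of these changes was not tested.

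With the replicate number as a block the dDAVP fit called 8 genes and 0 members (Fads1 adjusted p = 0.10), and no other call on a member changed. Deviations of same-numbered samples correlated at 0.19, 0.23, 0.0873 and -0.149 in the dDAVP table. These correlations were weak, but 3 of 4 samples correlated best with their own number. Whether the numbers pair the dDAVP samples was therefore not settled, and neither was the choice between the fits with and without the block. In the β-catenin table the correlations were -0.00197, 0.0397, -0.0285 and -0.0167, and no sample correlated best with its own number.

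With 4 samples a group the 95% interval of most members in the dDAVP table spans more than 1 on the log2 scale, so modest changes were not detectable there. The 17 members outside that table are not analysed here for dDAVP.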

Other observations

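Fads1 gave different levels in the tables, which were normalised separately and cannot be set on 1 scale. It had 88.76 to 106.57 TPM in dDAVP libraries and 25.22 to 48.58 TPM in vehicle libraries, and unit means of 36.06 to 47.78 TPM in MT units and 34.06 to 40.39 TPM in WT units. Each β-catenin library is labelled as given dDAVP, while the name of the deposited table says no vasopressin. The principal cell markers summed to between 26220 and 44630 TPM in MT libraries and between 22260 and 53740 TPM in WT libraries of that table.

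Summed by role in the dDAVP table, the 5 fatty acid genes had 486.7 to 606.3 TPM in dDAVP libraries and 317.2 to 458.6 TPM in vehicle libraries, ranges that do not overlap. Without Fads1 the other 4 had 382.2 to 505.6 TPM in dDAVP libraries and 268.6 to 432 TPM in vehicle libraries, which overlap. Of those 4, the 2 elongases Elovl1 and Elovl6 together had 190.5 to 227.9 TPM in dDAVP libraries and 128.8 to 171.2 TPM in vehicle libraries. Those 2 ranges do not overlap, although each elongase alone did, as did Acly and Scd2. The 7 sterol enzymes had 398.8 to 496.9 TPM in dDAVP libraries and 467.7 to 591.7 TPM in vehicle libraries, which overlap. These sums were not tested, since the genes were chosen with results known.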
